A study of Mus musculus with 12 samples.

Results

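In 380 stretches of the genome of mouse embryonic stem cells (mESCs), at least 8 peaks of open chromatin followed each other in close succession. These dense clusters were found in the deposited list of reproducible mESC peaks of both sequencing platforms by chaining peaks on a chromosome whose gap, from the end of a peak to the start of the next, was at most 5 kb, and by keeping chains of 8 or more peaks. They held 4050 of the 67063 mESC peaks (6.04%) and 380 of 40006 chains. Where a chain was named, it was named by the protein-coding and microRNA genes whose body it overlapped in GENCODE M21, or otherwise by the nearest protein-coding transcription start site (TSS). All positions are on GRCm38, counted from 1.

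The chromatin was profiled by Omni-ATAC-seq, in which the Tn5 transposase inserts sequencing adapters into accessible DNA. Mouse embryonic fibroblasts (MEFs), sorted as THY1+ cells, were compared with mESCs, sorted as THY1-, SSEA1+ and EPCAM+ cells. Both came from a C57/Bl6 background, and no treatment or engineered allele is named in the labels. Each of 6 libraries, numbered 1, 2 and 4 in MEFs and 1, 3 and 5 in mESCs, was read by both a DNBSEQ-G400 sequencer (called BGI below) and a HiSeqX10 (Illumina), which gave 12 samples in 4 groups of 3 (MEF and mESC, BGI and Illumina). Both runs of a library were summed for the comparison of cell types, so that n = 3 libraries per cell type. The labels name no animal for a library, and MEFs and mESCs differ in the depth to which the authors down-sampled them.

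The cis-regulatory landscape of a gene usually consists of a promoter, which is often open in many cell types, and of distal enhancers, which tend to be open only where they are used. In stem cells, clusters of neighbouring enhancers lie around genes of the pluripotency network, such as those for the transcription factors OCT4 (Pou5f1), SOX2 and ESRRB and for the microRNAs of the miR-290 to miR-295 cluster. Gene-rich stretches can also gather many peaks without any such enhancer, because the promoters of several genes lie side by side.

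The sequences of a few sites that the results turn on are given first. The peak with the largest mESC to MEF ratio in the cluster at Esrrb lay in an intron of the gene (chr12:86501685-86502213). Its central 300 bases (chr12:86501799-86502098, plus strand, GRCm38.p6) held the letters TCAAGGTCA of the oestrogen-related receptor motif, the family to which the ESRRB protein belongs, shown here in capitals. The most accessible peak of the cluster at the miR-290 to miR-295 genes, 608 bp from the start of Mir295, and the promoter peak of Mybl2 are shown in the same way, and their capitals mark TGACTCA, the AP-1 motif, on the minus strand. The last of these sequences is the center of the peak in an intron of Smarcd3 that fell most in mESCs among the 6 lowest clusters. It holds none of the 7 motifs searched. The same is true of the strongest peaks of the rising clusters upstream of Mir290a, near Akap12 and at Bicral, whose sequences are not shown.
Esrrb intron: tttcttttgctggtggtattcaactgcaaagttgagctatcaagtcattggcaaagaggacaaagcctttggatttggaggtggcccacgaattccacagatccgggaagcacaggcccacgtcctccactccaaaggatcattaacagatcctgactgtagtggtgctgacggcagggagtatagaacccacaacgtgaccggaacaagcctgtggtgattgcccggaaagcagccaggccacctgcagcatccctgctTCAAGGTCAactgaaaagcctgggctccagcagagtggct
Mir295 (chr7:3221502-3221801): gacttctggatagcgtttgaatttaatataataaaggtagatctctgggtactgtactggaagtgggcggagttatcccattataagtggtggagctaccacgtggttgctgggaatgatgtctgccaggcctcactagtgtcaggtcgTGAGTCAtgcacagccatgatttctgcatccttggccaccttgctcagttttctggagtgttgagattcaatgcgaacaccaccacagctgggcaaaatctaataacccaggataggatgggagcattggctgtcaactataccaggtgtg
Mybl2 promoter (chr2:163075312-163075611): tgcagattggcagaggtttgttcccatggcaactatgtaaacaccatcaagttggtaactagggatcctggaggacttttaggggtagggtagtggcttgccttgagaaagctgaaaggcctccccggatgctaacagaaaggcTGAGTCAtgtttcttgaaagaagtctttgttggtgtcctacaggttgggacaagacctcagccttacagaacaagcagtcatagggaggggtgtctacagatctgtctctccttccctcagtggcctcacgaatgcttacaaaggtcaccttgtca
Smarcd3 intron (chr5:24604670-24604969): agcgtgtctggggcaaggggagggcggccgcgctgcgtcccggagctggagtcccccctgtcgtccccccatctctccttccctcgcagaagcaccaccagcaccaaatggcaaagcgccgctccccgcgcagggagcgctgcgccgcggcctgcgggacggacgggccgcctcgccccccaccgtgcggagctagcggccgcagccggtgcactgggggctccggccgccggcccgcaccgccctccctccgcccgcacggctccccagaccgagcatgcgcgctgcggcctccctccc

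The Smarcd3 stretch consisted of 77.3% G and C, against 53%, 47.7% and 49% in the others.

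The cluster at the miR-290 to miR-295 genes contained all 9 hairpins of this family of embryonic microRNAs, for which RefSeq (GRCm38.p6) lists 17 mature sequences inside the chain. A microRNA pairs with its targets mainly through its seed, bases 2 to 8, shown in capitals. The 3′ arms of 3 of these microRNAs share a seed (AAGUGCU), and miR-291b-3p, shown beside them, has AAGUGCA.
mmu-miR-291a-3p: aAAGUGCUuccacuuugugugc
mmu-miR-294-3p: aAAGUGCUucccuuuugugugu
mmu-miR-295-3p: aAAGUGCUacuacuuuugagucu
mmu-miR-291b-3p: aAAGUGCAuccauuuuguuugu

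Most dense clusters were short. The number of peaks in a cluster had a median of 9 and ranged from 8 to 56, and 120 of the 380 clusters held exactly 8. The span from the first to the last peak had a median of 18605 bp (range 6948 to 67720 bp), and neighbouring peaks lay 1011 bp apart at the median. The largest numbers of clusters were on chromosome 7 with 46, chromosome 11 with 43 and chromosome 17 with 31, while chromosome X had none. In 344 clusters the span overlapped the body of a protein-coding gene, in 172 it held the TSSs of at least 2 such genes and in 59 it held none. An annotated microRNA gene lay in 48 clusters. The 217 chains of 7 peaks, just outside the limit, had a median log2 fold change of mESC over MEF of -0.24 and 43.3% promoter peaks, and those of 8 peaks, just inside it, had -0.25 and 43.96%.

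By location, the share of intronic peaks was lower, and that of exonic peaks higher, in dense clusters than over all mESC peaks. A peak within 1 kb of an annotated TSS was called a promoter peak, and 1753 of the 4050 (43.3%) were, against 39.7% of all mESC peaks. Another 11.4% were exonic, 17.7% intronic and 27.6% intergenic, with 8.31%, 25.3% and 26.7% over all peaks. With a window of 500 bp the promoter share was 34.2% in the clusters and 34.5% over all peaks, so that the excess of promoter peaks depends on the window. The median GC content was 54.2% in the clusters and 52.8% over all peaks. A MEF peak of the study's list covered at least 50% of 1830 cluster peaks (45.2%, 45.5% over all peaks), and with a minimum overlap of 1 bp the order of these shares turned, at 49.5% and 48.4%. The same chaining rule applied to the MEF list gave 154 dense clusters with 1604 of 61891 MEF peaks, and 70 of the 380 mESC clusters overlapped one of them. No test was made of these shares, since neighbouring peaks are not independent samples.

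The authors had down-sampled the MEF samples to 60 M and the mESC samples to 45 M reads. The reads counted in mESC peaks ranged from 14510944 to 16268448 per MEF sample and from 15692254 to 17133417 per mESC sample, and those in the clusters from 914253 to 1213531 per sample. The labels were checked at promoter peaks of marker genes, summed per gene. In mESC peaks, 6 of 7 stem cell markers were higher in every mESC than in every MEF library. The exception was Fut4, at 25.5 CPM in MEFs and 11.8 CPM in mESCs. In MEF peaks, all 7 fibroblast markers were higher in every MEF library. Of 12 markers of endothelial, blood, muscle, neural and skin cells, 6 had an mESC promoter peak and 4 a MEF one, with a summed level of 96.6 to 116.8 CPM in MEFs and 144.7 to 159.8 CPM in mESCs in mESC peaks. Cdh5, Ptprc, Spi1, Myog, Krt5 and Krt14 had none in either list. The 2 peaks of Cd68, which encodes a macrophage marker, lie in the cluster that spans Eif4a1 and are among the peaks described here. In bulk samples of this kind, a larger share of cells with an open site cannot be told apart from a site that is more open in each cell.

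The first comparison asked how the clusters differ between the pluripotent and the fibroblast state. Read counts of all 67063 mESC peaks were fitted with edgeR (quasi-likelihood F test, two-sided, TMM normalization, Benjamini-Hochberg adjusted p under 0.05 over all peaks), and the sums over each of the 40006 chains were fitted in the same way. Because the peaks were chosen as mESC peaks, a high mESC level is part of how they were chosen. Calls of a higher level in mESCs are therefore descriptions here and are no independent evidence, whereas the MEF level played no part in the choice.

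Of the 4050 peaks, 1924 (47.5%) were called higher in mESCs and 1558 (38.5%) lower, while 47.0% and 41.5% of all mESC peaks were. All 4050 passed the filter on low counts. Their median log2 fold change was 0.20, beside 0.16 over all peaks, and the single values ranged from -3.34 to 5.86. As whole clusters, 126 of 380 were called higher (33.2%, with 46.3% of all chains) and 210 lower (55.3%, with 42.8% of all chains), and 44 were not called. Their median log2 fold change was -0.25, 0.350 below that of all chains at 0.10. At a log2 fold change of at least 1, 36.5% of the peaks were higher and 16.2% lower, with 38.3% and 20% of all mESC peaks. Of the clusters, 13.7% were higher and 5.26% lower, with 36.8% and 18.1% of all chains. A cluster sums at least 8 peaks and 26396 of all chains are single peaks, so these shares of clusters and chains have unlike units. Single peaks without a neighbour within 5 kb had a median of 0.53, chains of 2 to 3 peaks -0.33 and chains of 4 to 7 peaks -0.27, so that the dense clusters resembled other chains of several peaks and stood apart from the lone peaks.

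The zero line of this comparison depends on the scaling. When the depths to which the authors had down-sampled the samples were used as library sizes in place of TMM, the median of all chains moved from 0.10 to 0.97, and 310 clusters were called higher and 19 lower, with 2817 and 484 of the single peaks. These are 81.6% and 5% of the clusters and 69.6% and 11.95% of the peaks, where 66.9% and 14.1% of all chains and 65.3% and 14.6% of all mESC peaks were called higher and lower. The sign turned in 193 of the 380 clusters, all of them below 0 with TMM, whether called or not. Values below are on the TMM scale.

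Clusters that gained and clusters that lost accessibility differed in how far they were built from sites also listed in MEFs. In 20 clusters, fewer than 10% of the peaks overlapped a MEF peak. Their median log2 fold change was 2.39 (range 0.05 to 4.07) and 19 of them were called higher. The 179 clusters with 10% to under 50% had a median of 0.17, with 92 higher and 58 lower. Among the 176 with 50% to under 90% the median was -0.56, with 15 higher and 147 lower, and all 5 clusters with 90% or more were lower, with a median of -1.09. At the down-sampled depths the 4 medians were 3.26, 1.04, 0.31 and -0.22. Both measures come from the same MEF libraries, so this order is a description. The clusters without a promoter peak, 36 in number, had a median of 0.84 with 27 higher and 6 lower, and the 176 in which 50% or more of the peaks were promoter peaks had -0.40 with 36 higher and 125 lower. In 16 clusters no peak overlapped a MEF peak, in 12 the whole span held none, and in 1 cluster every peak overlapped one.

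**Figure D1:**
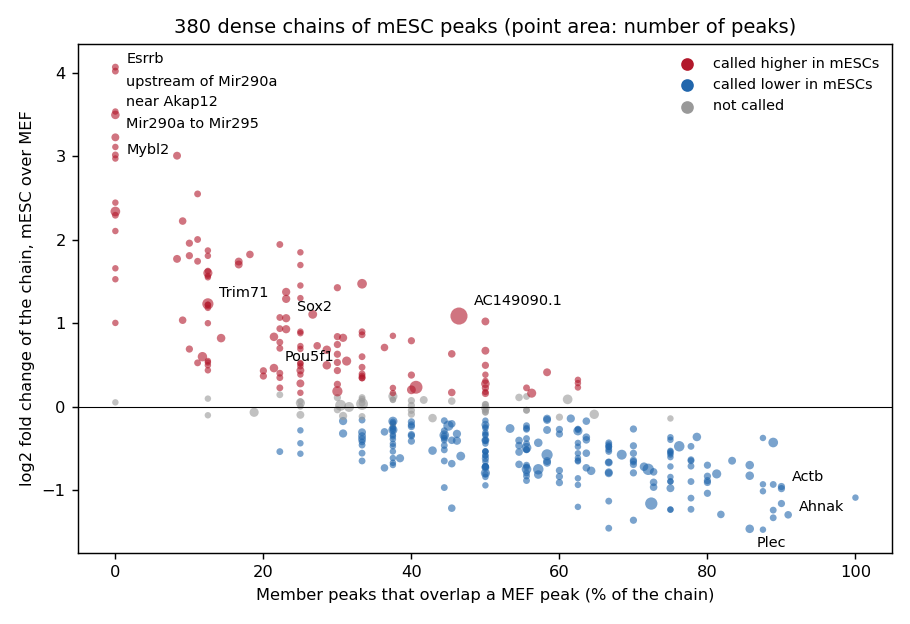
Each point is 1 of the 380 dense clusters (a chain of at least 8 peaks; point area, number of peaks; red, called higher, blue, called lower, grey, not called), with the share of its peaks that overlap a MEF peak on the x axis (%) and the edgeR log2 fold change of its summed counts, mESC over MEF with TMM scaling, on the y axis. Esrrb at 4.07 and most other clusters without a MEF peak lie at the upper left and Plec at -1.47 at the lower right. Of the clusters below 0, 193 lie above 0 at the down-sampled depths.

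The same division ran through the single peaks. Promoter peaks in the clusters had a median log2 fold change of -0.49, with 29.7% called higher and 57.05% lower, where 22.5% and 66.8% of all promoter peaks were. The exonic, intronic and intergenic peaks had medians of 0.89, 1.11 and 0.90. Over all mESC peaks the medians of the 4 classes were -0.72, 0.92, 1.24 and 1.28. Intergenic peaks of clusters thus had a lower median, and promoter peaks a higher one, than their class as a whole. At the down-sampled depths the promoter median was 0.39 in the clusters and 0.16 over all peaks. Peaks away from promoters and from MEF peaks numbered 1537, of which 1287 were higher and 61 lower (83.7% and 3.97%, with 86.4% and 3.11% of all such mESC peaks), and they had a median level of 8.25 CPM in mESCs and 2.54 CPM in MEFs.

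**Figure D2:**
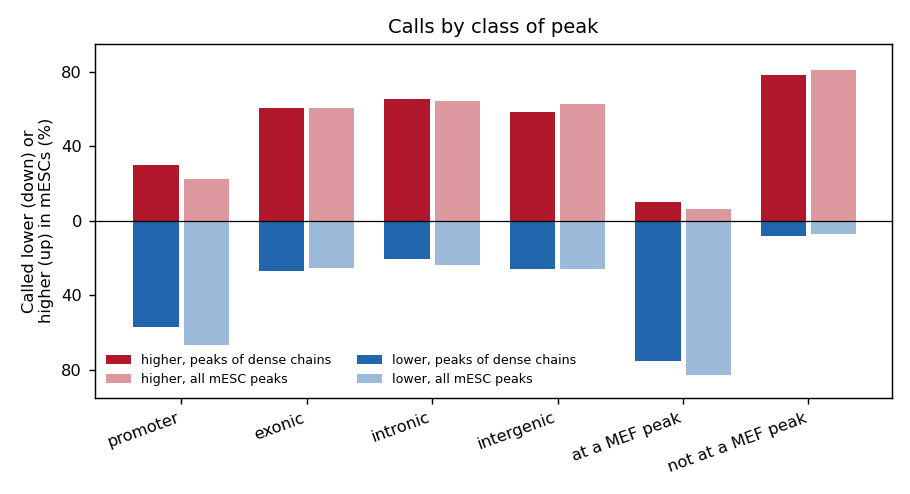
Share of peaks (%) called higher (red, upward) or lower (blue, downward) in mESCs by edgeR with TMM scaling, for classes of peaks on the x axis. Dark bars are the peaks of dense clusters and pale bars all mESC peaks, and the promoter bars read 29.7% up and 57.05% down in the clusters, with a median log2 fold change of -0.49 that is 0.39 at the down-sampled depths.

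Most clusters held peaks called in both directions. On the TMM scale 332 of 380 (87.4%) did, and 217 (57.1%) at the down-sampled depths. The share follows the number of peaks, being 27.7% in chains of 2 to 3 peaks, 64.2% in those of 4 to 7, 77.9% in those of 7 and 82.5% in those of 8 with TMM, so it is not particular to dense clusters. With TMM, every called peak was higher in 33, and in 15 every called peak was lower. Every peak was called higher in 14 clusters and lower in 3 with TMM, and in 58 and 0 at the down-sampled depths. Those lower with TMM included, named here after its values were seen, the cluster at Tbx2, a T-box gene, with Gm11444 (chr11:85830938-85849550, log2 fold change -1.24 ± 0.06), and that at Junb described below. At the down-sampled depths they had -0.37 and 0.03. Among those higher, likewise chosen after its values were seen, was a cluster of 12 peaks at Cdh1, the gene of the epithelial adhesion molecule E-cadherin (chr8:106599506-106620045), with 66.2, 60.7 and 54.8 CPM in MEF libraries 1, 2 and 4 and 219, 181 and 193 CPM in mESC libraries 1, 3 and 5 and a log2 fold change of 1.70 ± 0.08 (edgeR adjusted p = 3.10e-12). Between the highest and the lowest peak of a cluster the median distance was 3.98 on the log2 scale. The SD of the log2 fold change among peaks of a cluster had a median of 1.32, and among all 4050 peaks it was 1.63. The strongest peak took 24.1% of a cluster's summed mESC CPM at the median (range 9.22% to 60.4%).

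The 6 clusters with the largest rise, chosen by their values, had no peak that overlapped a MEF peak, and all of their peaks were called higher. The first was the cluster of 9 peaks within Esrrb (chr12:86497144-86508771), the gene of an orphan nuclear receptor that maintains naive pluripotency. Its summed level was 8.77, 9.69 and 9.85 CPM in MEF libraries 1, 2 and 4 and 162, 169.8 and 145 CPM in mESC libraries 1, 3 and 5. The groups lay far apart, and the log2 fold change was 4.07 ± 0.09 (SE; edgeR adjusted p = 1.65e-15). Its strongest peak, shown above, had 0.875, 0.950 and 0.809 CPM in MEF libraries 1, 2 and 4 and 51.2, 59.6 and 42.9 CPM in mESC libraries 1, 3 and 5, the largest log2 fold change of all 4050 peaks at 5.86 ± 0.17. The smallest in this cluster, at 2.59 ± 0.29, was in an intron 3572 bp from the nearest TSS.

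The miR-290 to miR-295 genes had a pair of neighbouring dense clusters. The first, of 9 peaks upstream of the genes (chr7:3191889-3206911), lay between protein-coding genes, nearest to AU018091 at 22686 bp. It had 11.9, 10.4 and 11.9 CPM in MEF libraries 1, 2 and 4 and 185, 197 and 176 CPM in mESC libraries 1, 3 and 5, with a log2 fold change of 4.02 ± 0.08 (edgeR adjusted p = 1.65e-15). The second held the microRNA genes themselves, with 14 peaks (chr7:3211955-3228657), and overlapped the body of Nlrp12, which encodes a regulator of innate immune signalling. It had 21.5, 19.8 and 21.1 CPM in MEF libraries 1, 2 and 4 and 249, 248 and 209 CPM in mESC libraries 1, 3 and 5 and a log2 fold change of 3.50 ± 0.08 (edgeR adjusted p = 2.71e-15). The peak by Mir295 reached 50.2 ± 10.2 CPM in mESCs, from 1.40 ± 0.163 CPM in MEFs (SD, n = 3 each), and the peak over the start of Mir290b rose the least, by 1.86 on the log2 scale.

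The third highest cluster contained 8 peaks between genes, 11490 bp from the TSS of Akap12, the gene of a scaffold protein of kinase A (chr10:4242215-4254890). Its level was 132 ± 6.31 CPM in mESCs, with 11.4 ± 1.20 CPM in MEFs (SD, n = 3 each) with a log2 fold change of 3.54 ± 0.08. At Mybl2, which encodes a cell cycle transcription factor abundant in stem cells, and its neighbour Gtsf1l, 12 peaks (chr2:163073401-163090478) had 185 ± 20.5 CPM in mESCs, with 19.7 ± 2.003 CPM in MEFs (SD, n = 3 each), for a log2 fold change of 3.23 ± 0.09. The Mybl2 promoter peak alone had 1.60, 1.60 and 1.95 CPM in MEF libraries 1, 2 and 4 and 45.6, 43.5 and 36.5 CPM in mESC libraries 1, 3 and 5. The cluster of 8 peaks in Bicral, a subunit gene of a BAF-type chromatin remodeller (chr17:46808285-46819309), had 74.4 ± 3.39 CPM in mESCs, with 8.59 ± 0.787 CPM in MEFs (SD, n = 3 each), so that its log2 fold change was 3.11 ± 0.09. All 3 were past the threshold (edgeR adjusted p = 2.71e-15, 1.62e-14 and 2.11e-14).

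The 6 clusters with the largest fall were smaller in effect, since no cluster fell by more than 1.48 on the log2 scale. The choice of peaks in mESCs favours rises and limits falls. The sign of these 6 clusters held at the down-sampled depths. They were made up mostly of peaks that overlapped a MEF peak. The cluster at Msl1, a gene of a histone acetyltransferase complex (chr11:98783261-98796916), had 255, 241 and 246 CPM in MEF libraries 1, 2 and 4 and 88.1, 89.1 and 89.7 CPM in mESC libraries 1, 3 and 5. Every mESC library lay below every MEF library, and the log2 fold change was -1.48 ± 0.06 (edgeR adjusted p = 3.79e-13). At Plec, which encodes the cytoskeletal linker plectin, 14 peaks (chr15:76186890-76208512) had 636, 583 and 589 CPM in MEF libraries 1, 2 and 4 and 248, 185 and 222 CPM in mESC libraries 1, 3 and 5, with -1.47 ± 0.08 (edgeR adjusted p = 2.51e-11). Of these, 11 were promoter peaks, and the exonic peak at chr15:76189795-76190316 fell most, from 61.9 ± 2.68 CPM in MEFs to 9.35 ± 1.26 CPM in mESCs (SD, n = 3 each).

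The clusters at Tnrc18 (chr5:142814665-142826124) and at Irf2bp2, the gene of a transcriptional corepressor (chr8:126591169-126603667), had log2 fold changes of -1.46 ± 0.07 and -1.36 ± 0.07. At Chpf2 and Smarcd3, the latter encoding a BAF complex subunit of mesodermal cells, 9 peaks (chr5:24586423-24605111) had 87.7 ± 3.01 CPM in mESCs, with 221 ± 12.4 CPM in MEFs (SD, n = 3 each) and -1.33 ± 0.06. Its intronic Smarcd3 peak, whose sequence is given above, had 67.97, 58.1 and 60.4 CPM in MEF libraries 1, 2 and 4 and 7.95, 7.36 and 7.76 CPM in mESC libraries 1, 3 and 5. The last of the 6 lay at Eef1g and Ahnak (chr19:8976477-8998009), the latter encoding a giant scaffold protein, with 266 ± 26.9 CPM in mESCs, with 655 ± 47.2 CPM in MEFs (SD, n = 3 each) and -1.30 ± 0.07. The edgeR adjusted p was 3.84e-12, 4.10e-12, 2.84e-12 and 2.44e-11 for these 4 clusters. Each of the 6 also held 1 peak called higher in mESCs, and that of Msl1, 2888 bp from the TSS, rose by 2.90 on the log2 scale inside the cluster that fell most.

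**Figure D3:**
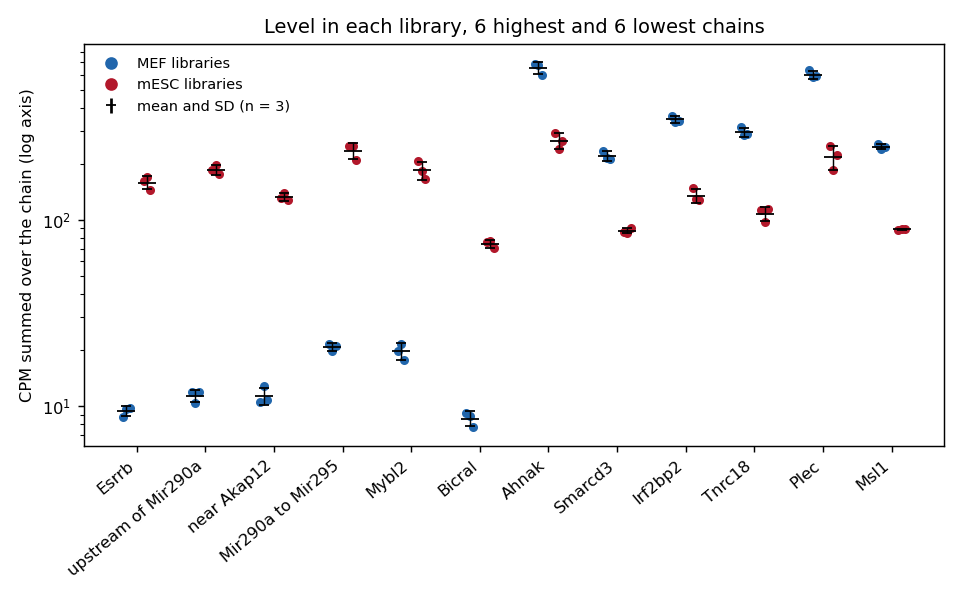
Summed CPM of the peaks of a cluster (y axis, log scale) in each of the 3 MEF libraries (blue) and 3 mESC libraries (red), with the mean and SD in black, for the 6 clusters with the largest rise and the 6 with the largest fall on the TMM scale. In all 12 the 2 groups do not overlap, and the Esrrb cluster goes from 9.44 CPM in MEFs to 159 CPM in mESCs.

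The clusters with the most peaks took in both kinds. The largest, with 56 peaks over 67720 bp, filled a stretch of the unplaced scaffold JH584304.1, with AC149090.1 as its annotated gene. It had 849, 981 and 791 CPM in MEF libraries 1, 2 and 4 and 1874, 1889 and 1801 CPM in mESC libraries 1, 3 and 5, and a log2 fold change of 1.09 ± 0.07 (edgeR adjusted p = 8.21e-11). At 1855 CPM it was also the cluster with the highest mESC level of those named here. The SD of its MEF level was 97.2 CPM. Reads of an unplaced scaffold may come from near-identical copies elsewhere, which was not tested, and without this cluster 1892 peaks were higher and 1555 lower. The second, on chromosome 17, held 32 peaks from Tmem151b over Hsp90ab1 to Mymx (chr17:45543982-45610701). It had 475 ± 30.5 CPM in mESCs, with 404 ± 18.96 CPM in MEFs (SD, n = 3 each) and 0.23 ± 0.06 (edgeR adjusted p = 0.00186), a call that was lost with DESeq2 (adjusted p = 0.0602) and with RLE size factors (0.0921). Within it, the promoter peak of Mymx, the gene of a myoblast fusion peptide, rose from 3.67 ± 0.787 CPM to 51.8 ± 8.58 CPM (SD, n = 3 each; log2 fold change 3.82 ± 0.15), while a promoter peak of Nfkbie, an NF-κB inhibitor gene, had a log2 fold change of -1.54 ± 0.11.

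Next in size was a run of 29 peaks from Stk11 to Efna2 on chromosome 10 (chr10:80130573-80179698), a stretch of 7 protein-coding genes. It fell, with 1099, 1052 and 1075 CPM in MEF libraries 1, 2 and 4 and 486, 483 and 473 CPM in mESC libraries 1, 3 and 5 and a log2 fold change of -1.16 ± 0.05 (edgeR adjusted p = 1.64e-12), and 24 of its peaks were lower and 2 higher. Its Midn promoter peak had a log2 fold change of -1.11 ± 0.09, and its lowest peak, 4847 bp from the cold-inducible gene Cirbp, had -2.09. At Fosb, an AP-1 gene, 24 peaks (chr7:19278921-19327599) had -0.58 ± 0.07, at Lmna, which encodes the nuclear lamins A and C of differentiated cells, 21 peaks (chr3:88473032-88515492) had -0.75 ± 0.06, and at the histone genes Hist1h4h, Hist1h2af and Hist1h3g there were 21 peaks (chr13:23497878-23536587) with -0.48 ± 0.08. These 3 clusters were called lower with TMM (edgeR adjusted p = 9.45e-07, 1.40e-09 and 4.08e-05) and lie above 0 at the down-sampled depths.

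Trim71 showed the opposite pattern (chr9:114522017-114569768). The gene encodes an RNA-binding ubiquitin ligase of early development, and 19 of the 24 peaks in its cluster were higher in mESCs and 2 lower. The summed level was 149, 153 and 138 CPM in MEF libraries 1, 2 and 4 and 346, 355 and 334 CPM in mESC libraries 1, 3 and 5, with a log2 fold change of 1.23 ± 0.06 (edgeR adjusted p = 3.96e-12). Its intronic peak at chr9:114549110-114549615 had 0.948, 0.988 and 1.43 CPM in MEF libraries 1, 2 and 4 and 19.5, 22.8 and 19.6 CPM in mESC libraries 1, 3 and 5. In the clusters at Mcl1 and Adamtsl4 (27 peaks, chr3:95643156-95688080) and at Mreg (23 peaks, chr1:72197760-72256886) gains and losses offset each other, and the log2 fold changes of 0.03 ± 0.06 and 0.02 ± 0.06 did not pass the threshold (edgeR adjusted p = 0.615 and 0.797). Both clusters were called higher at the down-sampled depths (0.90 and 0.88). Single peaks in them went far in both directions. A peak 5400 bp from Mcl1, the gene of a survival factor of the BCL2 family, rose by 4.06 and one near Adamtsl4 had -1.48 on the log2 scale, and the highest and lowest peaks at Mreg had 4.39 and -1.31.

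**Figure D4:**
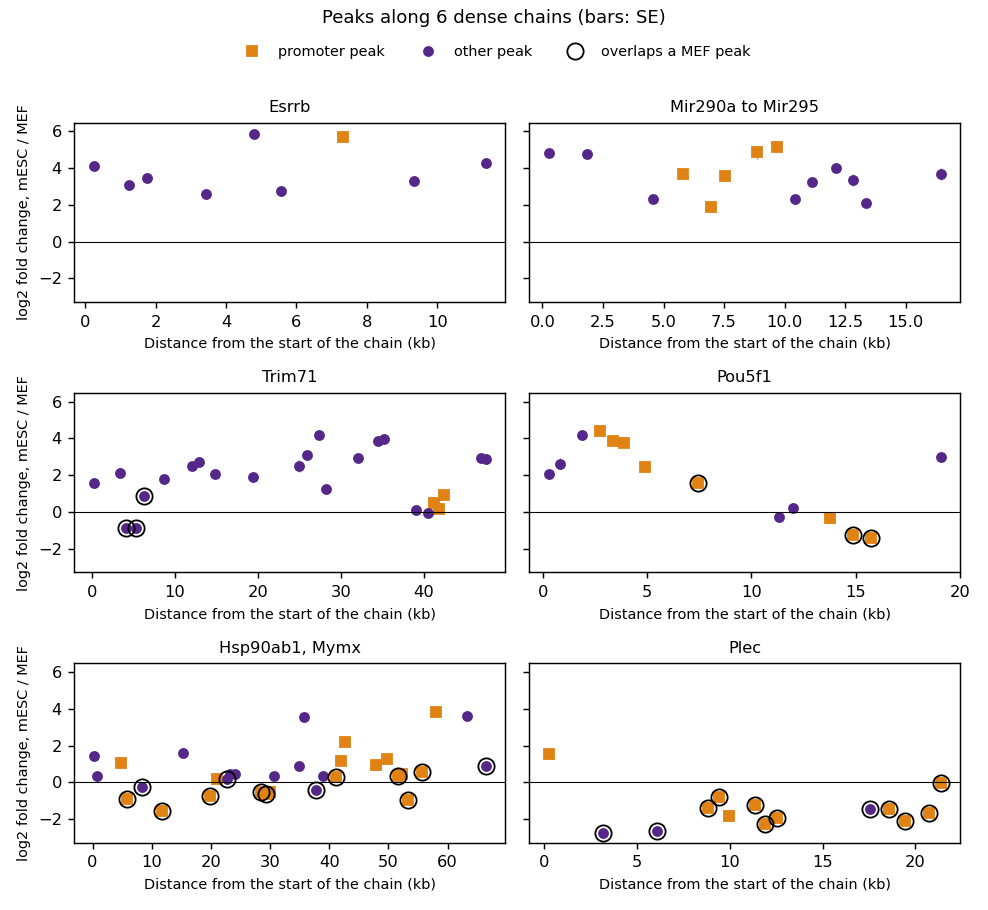
log2 fold change of each peak, mESC over MEF with TMM scaling (y axis; bars, SE, mostly hidden by the symbols), against the distance of its center from the start of the cluster in kb (x axis), in 6 dense clusters. Squares are promoter peaks, filled circles other peaks, and open rings mark overlap with a MEF peak. All peaks lie above 0 at Esrrb and at Mir290a to Mir295, most lie below it at Plec, and both signs occur at Pou5f1 and from Hsp90ab1 to Mymx.

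Genes of known roles were then followed by list. A gene was counted if a dense cluster overlapped its body or lay within 50 kb of its TSS, which held for 1717 of 21992 protein-coding genes (7.81%). Of 24 pluripotency transcription factor genes, 7 had such a cluster (Esrrb, Klf2, Pou5f1, Sox2, Tbx3, Utf1 and Zscan10), and of these 7 clusters 6 were called higher and 1 lower, with a median log2 fold change of 0.46, where 33.2% of all dense clusters were higher and 55.3% lower, with a median of -0.25. The 14 peaks at Pou5f1 with its neighbours Tcf19 and Cchcr1 (chr17:35502102-35521426) had 146, 148 and 140.4 CPM in MEF libraries 1, 2 and 4 and 192, 204 and 203 CPM in mESC libraries 1, 3 and 5, and the log2 fold change was 0.46 ± 0.06 (edgeR adjusted p = 8.07e-07). The cluster was split. A promoter peak of Pou5f1, the gene of OCT4, had 1.13, 1.33 and 1.40 CPM in MEF libraries 1, 2 and 4 and 25.1, 27.8 and 29.04 CPM in mESC libraries 1, 3 and 5, while the promoter peak of Tcf19 fell, with 92.6 ± 4.37 CPM in MEFs and 39.4 ± 4.07 CPM in mESCs (SD, n = 3 each).

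At Sox2 the cluster of 13 peaks (chr3:34639143-34668916) had 150.1 ± 9.45 CPM in mESCs, with 71.98 ± 4.84 CPM in MEFs (SD, n = 3 each), with a log2 fold change of 1.06 ± 0.07 (edgeR adjusted p = 1.55e-10). None of its peaks was called lower. Its most accessible peak, at the Sox2 promoter, had 11.96, 14.6 and 12.98 CPM in MEF libraries 1, 2 and 4 and 28.5, 42.9 and 31.7 CPM in mESC libraries 1, 3 and 5, and a peak in an intron of the surrounding non-coding gene Sox2ot rose most, by 3.46 on the log2 scale. In the Klf2 cluster of 12 peaks (chr8:72310824-72335381), with 0.28 ± 0.06 (edgeR adjusted p = 0.000322), the promoter peak had a log2 fold change of -0.64 ± 0.09, above 0 at the down-sampled depths (0.25), and a peak 15074 bp away rose by 4.14, with 1.13, 1.75 and 1.03 CPM in MEF libraries 1, 2 and 4 and 24.4, 23.9 and 20.5 CPM in mESC libraries 1, 3 and 5. The clusters at Tbx3 (chr5:119678975-119691506) and at Utf1 with Kndc1 (chr7:139940601-139952404) had 0.39 ± 0.07 and 1.0 ± 0.07. The cluster counted for Zscan10 lay nearer to Zfp213 (chr17:23533891-23551333) and had -0.84 ± 0.09 with TMM, and 0.03 at the down-sampled depths.

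Among 23 genes of chromatin and DNA methylation, 6 had a dense cluster (Cbx7, Mbd3, Tet1, Trim28, Trim71 and Zmynd8), with 8 clusters in all, 6 higher and 2 lower (median log2 fold change 0.64, with -0.25, 33.2% higher and 55.3% lower over all dense clusters). Mbd3 and Zmynd8 had 2 clusters each. The 17 peaks at Tet1, the gene of an enzyme that oxidises 5-methylcytosine (chr10:62874001-62906798), had 157 ± 4.79 CPM in mESCs, with 104 ± 4.13 CPM in MEFs (SD, n = 3 each) and 0.60 ± 0.06. Its promoter peaks moved apart. The one at chr10:62892513-62893037 had 1.57, 1.60 and 2.17 CPM in MEF libraries 1, 2 and 4 and 21.4, 23.1 and 21.1 CPM in mESC libraries 1, 3 and 5, whereas that at chr10:62886673-62887174 had 34.4, 35.9 and 37.2 CPM in MEF libraries 1, 2 and 4 and 9.47, 9.15 and 9.35 CPM in mESC libraries 1, 3 and 5. At Zmynd8, a reader of histone marks, a pair of clusters (chr2:165818287-165833936 and chr2:165852894-165867456) had 1.29 ± 0.07 and 0.94 ± 0.09. The second contained an internal promoter peak with 103 ± 7.65 CPM in mESCs, with 5.54 ± 0.635 CPM in MEFs (SD, n = 3 each), which on the log2 scale was 4.21 ± 0.11, and also an intronic peak at -2.54 ± 0.15. The clusters at the Polycomb gene Cbx7 (chr15:79926949-79953922) and at Trim28, a corepressor gene, with Zbtb45 (chr7:13005980-13025330) had 0.68 ± 0.06 and 0.17 ± 0.06, of which the second call was lost with Illumina runs only (edgeR adjusted p = 0.0785), DESeq2 (0.255) and RLE size factors (0.318). Its intronic Zbtb45 peak rose by 5.31 on the log2 scale. Within reach of Mbd3 lay the clusters at Adamtsl5 (-0.94 ± 0.07) and Tcf3 (-0.34 ± 0.07), of which the first was not called (-0.07) and the second was higher (0.53) at the down-sampled depths.

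Of 14 genes of germ cells and the early embryo, only the neighbours Dppa5a and Ooep lay at a dense cluster. Its 12 peaks (chr9:78357997-78378831) had 21.3, 23.2 and 19.8 CPM in MEF libraries 1, 2 and 4 and 178, 183 and 157 CPM in mESC libraries 1, 3 and 5, a log2 fold change of 3.01 ± 0.08 (edgeR adjusted p = 1.02e-14). The promoter peak of Dppa5a, which encodes an RNA-binding protein of pluripotent cells, had 0.511, 0.494 and 0.772 CPM in MEF libraries 1, 2 and 4 and 22.1, 28.4 and 19.7 CPM in mESC libraries 1, 3 and 5, and the promoter peak of Ooep, an oocyte gene, was the only one of the 12 called lower, at -0.44 ± 0.14, with 0.44 at the down-sampled depths. Besides the genes of miR-290 to miR-295, the microRNA list of 17 gave only Mir143 and Mir145a on chromosome 18, known from smooth muscle and fibroblasts, in a cluster of 16 peaks. It had 282 ± 15.7 CPM in mESCs, with 252 ± 11.4 CPM in MEFs (SD, n = 3 each), and its log2 fold change was 0.16 ± 0.06 (edgeR adjusted p = 0.02). A peak 12452 bp from the non-coding gene Bvht rose by 5.21 and one at its promoter had -1.82 on the log2 scale. The call of the cluster was lost with DESeq2 (adjusted p = 0.361), RLE size factors (0.398) and BGI runs only (0.0670), and without MEF 2 (0.0511), MEF 4 (0.0874) or mESC 1 (0.0889).

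Of 25 genes of pluripotency signalling, Socs3 and Pim1, both targets of the LIF and STAT3 pathway, lay at dense clusters. The cluster at Socs3 (chr11:117962252-117976691) had 314, 308 and 315 CPM in MEF libraries 1, 2 and 4 and 289, 294 and 266 CPM in mESC libraries 1, 3 and 5. Its groups nearly met, and the log2 fold change of -0.14 ± 0.06 (edgeR adjusted p = 0.0273) was above 0 at the down-sampled depths (0.72) and lost its call with BGI runs only (adjusted p = 0.0910) and without MEF 1 (0.0588), MEF 4 (0.0648), mESC 1 (0.126) or mESC 5 (0.299). A peak 2587 bp from its TSS rose by 4.08, and a promoter peak had -1.22 on the log2 scale. At Pim1 the cluster over the gene (chr17:29485763-29497323) had -0.53 ± 0.06, which was 0.33 at the down-sampled depths, and the one 39009 bp away (chr17:29434523-29451744) had 0.69 ± 0.06. The strongest peak of the distant one had 20.8, 18.2 and 18.05 CPM in MEF libraries 1, 2 and 4 and 59.9, 66.7 and 61.7 CPM in mESC libraries 1, 3 and 5.

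Developmental regulators were represented by 7 of 33 genes in 3 clusters, 1 higher and 2 lower, near the 33.2% and 55.3% of all dense clusters. The cluster from Hoxa3 to Hoxa10 (chr6:52211469-52234521) had -0.47 ± 0.06 and that at Meis2 (chr2:116060116-116072173) -0.46 ± 0.07, both above 0 at the down-sampled depths (0.40 and 0.41), and the cluster from Hoxd10 to Hoxd13 (chr2:74667769-74692052) had 0.31 ± 0.08. In the latter the promoter peak of Hoxd13, which patterns the distal limb, had 8.39, 9.20 and 7.20 CPM in MEF libraries 1, 2 and 4 and 15.5, 18.1 and 17 CPM in mESC libraries 1, 3 and 5. At Meis2, a Hox cofactor gene, an intronic peak rose by 1.41 and a promoter peak had -1.79 on the log2 scale. The summed mESC levels of the 3 clusters were 88.4, 102 and 82.9 CPM.

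Of 28 fibroblast genes, Junb alone lay at a dense cluster of mESC peaks, with 2 clusters, both called lower, as were 55.3% of all dense clusters. All 10 peaks of the cluster at Junb (chr8:84965855-84980434) were called lower, with 363, 346 and 409 CPM in MEF libraries 1, 2 and 4 and 203, 220.4 and 203 CPM in mESC libraries 1, 3 and 5 and -0.83 ± 0.07 (edgeR adjusted p = 2.19e-09), and the neighbouring one at Hook2 had -0.24 ± 0.06. At the down-sampled depths these were 0.03 and 0.62. Of 8 housekeeping genes, 7 lay at a dense cluster (Actb, Eef1a1, Eif4a1, Gapdh, Hsp90ab1, Ppia and Tubb5). Of their 9 clusters, 7 were lower and 2 higher, and the median log2 fold change was -0.33, where that of all dense clusters was -0.25 with 55.3% lower. The cluster over Actb (chr5:142894971-142912121) had 168 ± 6.99 CPM in mESCs, with 332 ± 32.5 CPM in MEFs (SD, n = 3 each) and -0.98 ± 0.07, -0.12 and not called at the down-sampled depths. At Gapdh (chr6:125158904-125175898) the log2 fold change was -0.35 ± 0.07, at Eef1a1 (chr9:78465725-78482186) -0.37 ± 0.10 and at Ppia (chr11:6402676-6421170) -0.33 ± 0.06, with 0.52, 0.50 and 0.54 at the down-sampled depths. The second cluster within reach of Actb had -0.28 ± 0.07, and 0.59 at those depths. The cluster counted for Tubb5 lay at Nrm and Ppp1r18 (chr17:35861058-35874226) and had -1.20 ± 0.07. The clusters at housekeeping genes also held peaks that rose. One 4751 bp from Ppia had 2.41, 2.51 and 2.02 CPM in MEF libraries 1, 2 and 4 and 21.98, 23.4 and 19.4 CPM in mESC libraries 1, 3 and 5, and a promoter peak of Ncapd2, the condensin gene beside Gapdh, rose by 3.62 on the log2 scale.

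The clusters near Eif4a1, the gene of a translation initiation helicase, differed. The one that spans it with Sox15, Mpdu1 and Cd68 (chr11:69653298-69672791) had -0.22 ± 0.06, and 0.65 at the down-sampled depths. The other, 18 peaks between genes 6742 bp from Tnfsfm13 (chr11:69702840-69729518), had no promoter peak and no peak that overlapped a MEF peak. It had 31.6, 32.1 and 35.02 CPM in MEF libraries 1, 2 and 4 and 173, 159.9 and 167 CPM in mESC libraries 1, 3 and 5, with a log2 fold change of 2.34 ± 0.07 (edgeR adjusted p = 2.05e-14), and 17 of its peaks were called higher.

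Short sequence motifs were counted as exact matches on either strand in the central window of 3994 cluster peaks and of 66993 mESC peaks in all, those with sequence in the reference. The letters TCAAGGTCA were found in 2.33% of cluster peaks and 1.79% of all peaks, the POU octamer ATGCAAAT in 2.88% and 3.52%, the SOX motif AACAATGG in 1.68% and 1.94%, and the KLF motif GGGTGTGG in 9.01% and 8.07%. TGACTCA (AP-1) was found in 13.8% and 13.2%, ACATTCCA (TEAD) in 2.60% and 2.82%, and AGGGGGCGC (core of CTCF) in 2.70% and 2.71%. Among cluster peaks called higher by at least 1 on the log2 scale the oestrogen-related receptor letters stood in 4.79%, and among those lower by at least 1 in 0.609%. Over all mESC peaks of the same classes these shares were 3.21% and 0.581%. The POU octamer was in 3.28% of the higher cluster peaks, with 5.69% over all higher peaks. AP-1 letters stood in 16.4% of the lower and 14.5% of the higher cluster peaks, and in 13.99% and 14.5% over all peaks of these classes. These are descriptions of letters, without a test. Each window had the width to which the study extended its summits.

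The clusters took a larger part of the reads in mESCs. Of the reads in mESC peaks, 6.45%, 6.30% and 6.34% fell in cluster peaks in MEF libraries 1, 2 and 4, and 7.31%, 7.06% and 7.10% in mESC libraries 1, 3 and 5. The means of 6.36 ± 0.0754% and 7.16 ± 0.135% (SD, n = 3 each) differ by 0.795 percentage points, beyond the spread among the 3 libraries of a cell type (p = 0.1 by exact permutation, two-sided, which is as low as this design can go). The part of these reads in promoter peaks went the other way, with 65.8 ± 0.342% in MEFs and 53.2 ± 1.04% in mESCs (SD, n = 3 each; exact permutation p = 0.1). Adjusted over these 2 comparisons, both p-values stay at 0.1, and the choice of peaks in mESCs favours the first difference.

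The second comparison asked what the sequencer changes at these sites, the question of the study. In the mESC samples, 109 of the 4050 peaks (2.69%) differed between BGI and Illumina, 1 higher and 108 lower on BGI, where 3.23% of all mESC peaks were called (edgeR without pairing). With the library number as a block, 845 were called (20.9%, with 21.3% of all peaks), 154 higher and 691 lower. With the block and an offset for GC content 149 were higher and 294 lower (3.68% and 7.26%, together 10.9%), with 4.35% and 4.78% of all mESC peaks, together 9.12%. In unpaired fits of 2 libraries per platform edgeR called 0 peaks without mESC 1, with 379 below an unadjusted p of 0.05, and 0 without mESC 5, with 253 below it (DESeq2 was only run on all libraries). Without mESC 3 it called 71 (1.75%, with 2.05% of all mESC peaks). DESeq2 on all 6 samples called 103 of the 3106 cluster peaks to which it gave an adjusted p (3.32%, with 4.84% of all such mESC peaks). Peaks called without pairing had a median GC content of 71.2%, against 54.2% for all cluster peaks with a value. In the cluster peaks of the highest GC decile the median log2 ratio of BGI to Illumina was -0.33, and in the lowest decile it was 0.02.

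The 3 peaks with the lowest p among those lower on BGI were rich in GC. The promoter peak of Samd1, which encodes a reader of unmethylated CpG islands (chr8:83997568-83998069, GC content 80.5%), had 4.83, 5.10 and 4.97 CPM on BGI and 12.9, 11.8 and 10.9 CPM on Illumina in mESC libraries 1, 3 and 5. The platforms did not overlap, and the log2 fold change was -1.25 ± 0.14 (edgeR adjusted p = 0.00312). A promoter peak of Irf2bp2 (chr8:126593189-126593690, 80.1%) and an exonic peak in the cluster of Prkd2 and Dact3 (chr7:16885381-16885902, 79.9%) had -1.17 ± 0.14 and -0.97 ± 0.12. Among those higher on BGI that were called only with the block were an intronic peak near histone genes on chromosome 13 (chr13:22015677-22016221) and an intronic peak at Fntb (chr12:76901441-76901943), at 0.48 and 0.30 (edgeR adjusted p = 0.0769 and 0.0949 without it, 6.91e-05 and 7.24e-07 with it). The central 200 bases of the Samd1 peak are shown for these values. They hold none of the 7 motifs, so no letters are in capitals.
Samd1 promoter (chr8:83997718-83997917, plus strand): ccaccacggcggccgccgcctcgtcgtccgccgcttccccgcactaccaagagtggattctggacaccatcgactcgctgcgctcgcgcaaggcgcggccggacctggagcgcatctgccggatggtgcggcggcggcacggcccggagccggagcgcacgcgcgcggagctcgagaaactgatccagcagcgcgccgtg

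**Figure D5:**
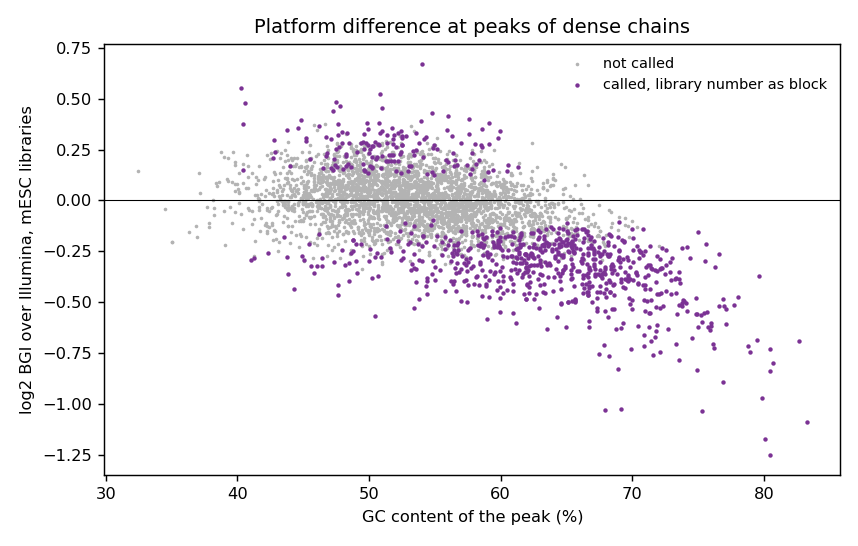
log2 ratio of BGI to Illumina in the mESC libraries (y axis, fit with library number as block) against the GC content of the peak (x axis, %), for the peaks of dense clusters with a GC value. The 845 peaks called with the block are purple and the others grey, and the ratios fall below 0 toward high GC content, down to -1.25 at the Samd1 promoter.

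The share of reads in cluster peaks was -0.0139 percentage points on BGI relative to Illumina, with the lower value on BGI in 5 of 6 libraries. The difference was -0.0354, -0.0428 and -0.0416 percentage points in mESC libraries 1, 3 and 5 and -0.0295, -0.00605 and 0.0721 in MEF libraries 1, 2 and 4. Without MEF 4 the mean was -0.0311, and without mESC 3 or mESC 5 it was -0.00810 or -0.00834. The mean over all libraries did not pass the threshold (two-sided exact permutation within cell types, p = 0.785; exact sign-flip over libraries, p = 0.438). A fold change between cell types that depends on the platform was called in 0 of 380 clusters without pairing. That fit (edgeR interaction, no other tool was run) had 9 at an unadjusted p under 0.05. With the library number as a block 10 clusters were called, where 0.245% of all chains were. Most chains (26396 of 40006) are single peaks, whereas a cluster sums the reads of at least 8, so the 2 are not like for like.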

How the data were processed

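Reads were aligned by the authors with Bowtie2 to mm10 (GRCm38). They removed duplicates and mitochondrial reads, down-sampled each MEF sample to 60 M and each mESC sample to 45 M reads and called peaks per sample with MACS2 (version not given in the sources used here). The deposited tables hold raw read counts per sample in each listed peak, not normalized. The deposited peak calls hold, per summit, fold enrichment over background as a ratio and the p-value as -log10. Deposited lists give peak positions only. Columns without a platform name were taken as Illumina, and were checked: over peaks, the ratio of the counts of both columns followed that of summit fold enrichment in each library (Spearman rho 0.772 to 0.808).

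Here, both runs of a library were summed and mESCs compared with MEFs (3 against 3) on all 67063 mESC peaks and on 40006 chain sums with edgeR 4.0.16 (R 4.3.3; TMM, default filter, two-sided). CPM are TMM-normalized, and the SE is the log2 fold change divided by the root of F, which is approximate. p-values measure the spread between these libraries, which the study calls biological replicates. Platforms were compared over the 6 mESC samples. Same-numbered samples are 1 library sequenced on both platforms, and their deviations from group means had correlations of 0.317 to 0.409 for MEFs and 0.514 to 0.722 for mESCs (other pairs -0.509 to -0.108), so a fit blocked on library is given where it changed calls. No samples held identical counts. Alternatives were DESeq2 1.42.0, RLE size factors, fixed depths, no filter, single platforms and leaving out libraries. The fits of cell types and of platforms were also run on simulated data in which few features changed, equally in both directions. Between the cell types most peaks were called, so that run does not bear on the choice of scaling.

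The members and lists were chosen with earlier results of these data known. Named clusters are the 10 with the most peaks, the 6 highest and 6 lowest called, and those at genes of the lists; within them the strongest, highest and lowest peak, and for platforms the 3 lowest p in each direction. Tables made from the MEF and mESC peaks of 1 platform were not used. Some clusters, peaks and sequences that this rule would name are not reported here.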

Additional observations from a re-analysis of the deposited data

Results flagged for a closer look

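In 10 of the 380 clusters (2.63%, with 0.245% of all chains) the log2 fold change of mESC over MEF was called different between the platforms. The calls are from the test of the interaction itself with library number as a block (edgeR, adjusted p from 0.000276 to 0.039). Without the block 0 were called. Of the 40006 chains, 26396 are single peaks, whereas a cluster sums the reads of at least 8, so these shares have unlike units. The log2 fold change was more positive on Illumina, by the interaction on the log2 scale with its SE, in the clusters near Mkrn1 (-0.24 ± 0.06), near Stoml1 (-0.20 ± 0.05), with AC149090.1 (-0.14 ± 0.03) and at Crlf2 (-0.14 ± 0.03). All 4 were higher in mESCs on both platforms. The rise was larger on BGI in the clusters at Mllt6 (0.22 ± 0.05), at Il17d (0.27 ± 0.06) and at Reep3 and Jmjd1c (0.27 ± 0.05), and the fall was smaller on BGI in those at Letmd1 (0.25 ± 0.05), at Rab31 and Ppp4r1 (0.27 ± 0.05) and at Mta1 (0.28 ± 0.06). At Letmd1 the log2 fold change was -0.00651 on BGI and -0.28 on Illumina, so that its interaction exceeded its fold change over both platforms of -0.16. At Mta1 the values were -0.16 and -0.47, and near Mkrn1, with the largest fold change of the 10, 1.72 and 1.94.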

How the results depend on the processing

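The definition of a cluster decides how many there are: gaps of at most 3 kb gave 138 clusters with 1415 peaks, of 10 kb 1091 with 13385, at least 6 peaks 970 with 7807 and at least 10 peaks 181 with 2379. The BGI list alone gave 294 and the Illumina list 285, which overlapped 291 and 277 of the 380. A log2 fold change of at least 1 left 657 peaks lower (16.2%, with 13441 of all 67063 peaks). It left 52 higher and 20 lower clusters (13.7% and 5.26%, with 36.8% and 18.1% of all chains, most of them single peaks). Fixed depths gave 484 lower peaks and 310 higher and 19 lower clusters, by their shift of all values. They turned 16 of 51 named clusters positive (0.29 at Fosb, 0.12 at Lmna, 0.39 at the histone genes, 0.0267 near Zfp213, 0.72 at Socs3, 0.33 at Pim1, 0.53 at Tcf3, 0.40 at Hoxa3 to Hoxa10, 0.41 at Meis2, 0.0342 at Junb, 0.62 at Hook2, 0.59 near Actb, 0.65 at Eif4a1, 0.50 at Eef1a1, 0.54 at Ppia, 0.52 at Gapdh) and 3 of 64 named peaks (0.25 at Klf2, 0.63 at Zmynd8, 0.44 at Ooep). Leaving out 1 library gave 1858 to 1899 peaks higher and 1498 to 1572 lower. For the platforms the replicate block (pairing by library number) gave 154 higher and 691 lower, with the GC offset 149 higher and 294 lower, and leaving out 1 library gave 0 to 2 higher and 0 to 69 lower; with the block, 10 clusters had an interaction in place of 0. A MEF peak covered 1 bp or more of 49.5% of cluster peaks and 48.4% of all peaks, and at least 80% of 40.5% and 41.8%. Promoter windows of 500 bp held 34.2% and 34.5%, and of 2 kb 53.8% and 46.2%. The share of reads in clusters kept its direction in every alternative run. Removal of the unplaced scaffold was chosen after seeing the data. At 3 libraries per cell type an exact test of a single share cannot pass 0.05.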
